A study of Homo sapiens with 48 samples.

Results

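RELA and RELB binding was compared in L3.6pl cells, an established human pancreatic ductal adenocarcinoma line, after 6 h of TWEAK. Each factor was profiled by ChIP-seq in 3 replicates, 6 of the 48 samples of the series, and each factor has 1 peak list pooled over its replicates. Regions on chromosomes 1 to 22 and X were split by whether a region of the other factor overlapped them by at least 1 bp, and regions whose summit lies in a tandem repeat were then left out. This left 1639 of 4038 RELB regions and 456 of 3651 RELA regions. They form 3 classes, namely 1308 RELB-only regions, 331 RELB regions shared with RELA (336 when counted in the RELA list), and 120 RELA-only regions. The 16 lists of the series also hold RELA, RELB and H3K27ac after vehicle (PBS) and after 30 min or 6 h of TNFα or TWEAK, and FOSL1 in vehicle-treated cells. RELA was precipitated with protein G beads and the other antibodies with protein A beads. The length of a list and the fold enrichment of a peak depend on the antibody and the depth as well as on binding, and these cannot be told apart here. The regions come from 1 cell line, and regions are not replicates of a condition.

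RELA and RELB are transactivating members of the NF-κB family of transcription factors. RELA, usually paired with p50, is released from the inhibitor IκBα in the canonical pathway, which TNFα triggers within minutes. RELB pairs with p52, which is made from the p100 precursor (NFKB2) in the slower noncanonical pathway that starts at receptors such as the TWEAK receptor TNFRSF12A. Dimers of both kinds bind variants of the κB sequence, and FOSL1, a subunit of AP-1, binds the sequence TGANTCA.

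The summit sequences below show what the classes hold. The 60 bp windows were read from hg38 on the plus strand, and capitals mark matches to the NF-κB consensus (GGG, a purine, any base, A or T, a pair of pyrimidines, CC, on either strand) or to the AP-1 sequence. The first 6 are RELB-only, namely 4 of the strongest regions (FYB1, KLF11, FAAH2 and PSMB7, the last without a match) and the regions at the start sites of IL23A and IRF1. The next 5 are shared, among them the promoters of RELB, BIRC3 and NFKBIA. The last 3 before the repeat are RELA-only regions at CXCL8, CSF1 and C3. The ELMOD1 window is shown because it is a strong shared region made of a simple repeat.
FYB1, RELB-only, chr5:39256647-39256706: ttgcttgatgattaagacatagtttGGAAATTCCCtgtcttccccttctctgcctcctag
KLF11, RELB-only, chr2:10036199-10036258: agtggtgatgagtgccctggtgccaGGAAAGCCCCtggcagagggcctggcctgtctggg
FAAH2, RELB-only, chrX:57286510-57286569: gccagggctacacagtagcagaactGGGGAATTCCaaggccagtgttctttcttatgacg
PSMB7, RELB-only, chr9:124393011-124393070: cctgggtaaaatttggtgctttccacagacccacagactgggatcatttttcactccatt
IL23A, RELB-only, chr12:56338764-56338823: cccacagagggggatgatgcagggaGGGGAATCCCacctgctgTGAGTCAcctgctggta
IRF1, RELB-only, chr5:132490789-132490848: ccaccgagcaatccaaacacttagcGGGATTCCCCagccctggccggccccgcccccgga
RELB, shared, chr19:45001380-45001439: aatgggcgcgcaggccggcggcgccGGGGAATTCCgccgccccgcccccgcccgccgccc
BIRC3, shared, chr11:102317324-102317383: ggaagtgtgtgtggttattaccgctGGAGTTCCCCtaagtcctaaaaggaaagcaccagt
NFKBIA, shared, chr14:35404796-35404855: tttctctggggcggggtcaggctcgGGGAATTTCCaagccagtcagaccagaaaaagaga
TNIP2, shared, chr4:2746275-2746334: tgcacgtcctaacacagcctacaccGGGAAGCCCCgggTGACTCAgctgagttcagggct
MAFF, shared, chr22:38218744-38218803: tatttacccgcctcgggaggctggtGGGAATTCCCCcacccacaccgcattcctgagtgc
CXCL8, RELA-only, chr4:73740406-73740465: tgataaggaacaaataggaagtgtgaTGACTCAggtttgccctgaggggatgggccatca
CSF1, RELA-only, chr1:109892678-109892737: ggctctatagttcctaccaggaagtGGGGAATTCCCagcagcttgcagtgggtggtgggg
C3, RELA-only, chr19:6720704-6720763: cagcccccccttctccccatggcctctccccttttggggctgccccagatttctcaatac
ELMOD1, shared, chr11:107590351-107590410: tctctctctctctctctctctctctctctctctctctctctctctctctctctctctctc

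Outside tandem repeats, most RELA regions lay on a RELB region, whereas most RELB regions had no RELA region. Of the RELB regions 20.2% were shared with RELA (exact 95% interval 18.3 to 22.2%), and of the RELA regions 73.7% were shared with RELB (69.4 to 77.7%). At shared sites the summits lay a median of 18 bp apart, 292 of 331 pairs had summits within 50 bp of each other, and the smallest overlap was 47 bp. RELB fold enrichment, the authors' ratio of ChIP over input at the summit, exceeded RELA fold enrichment at 276 of 331 shared pairs, with medians of 9.67 for RELB and 5.81 for RELA. Across the pairs Spearman's rho between the 2 values was 0.50, a description over regions that share the same libraries. Just outside the overlap rule, 3 RELB-only regions had a RELA region within 100 bp and 15 within 1000 bp. At the limit of the repeat filter, 59 of 140 RELB regions just outside a tandem repeat (self-match of 0.35 to 0.4) and 45 of 67 just inside (0.4 to 0.45) were shared.

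**Figure D1:**
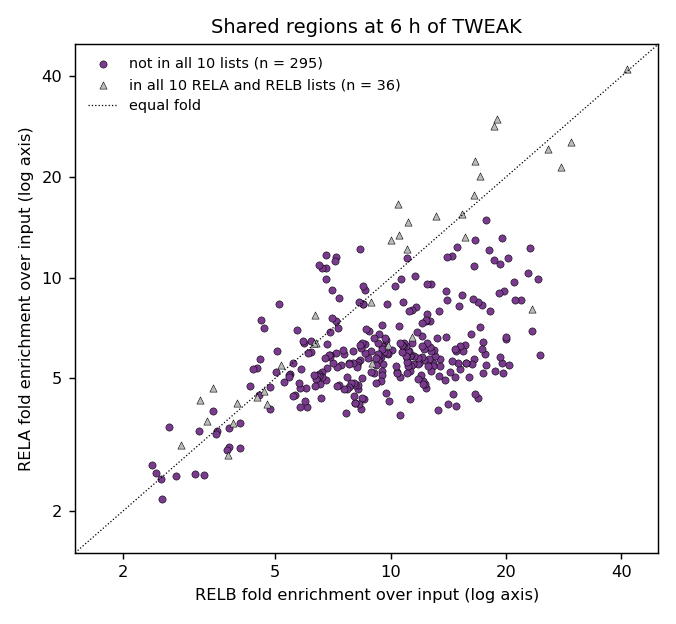
RELA against RELB fold enrichment at the 331 shared regions, both on log axes, with the 36 regions called in all 10 RELA and RELB lists as grey triangles and the dotted line at equal fold. Most circles lie below the line, where RELB enrichment is the higher, while only 15 of the 36 triangles do.

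A subset of shared regions was called under every condition. The 36 shared regions that are in all 10 RELA and RELB lists, vehicle included, had median folds of 10.2 for RELB and 8.24 for RELA, and 2 of them held an NF-κB consensus. The 4 strongest shared regions belong to them. The first, at chr13:109424119-109424353, lies 362358 bp from a start site of IRS2 and had folds of 34.5 to 42.0 in the 10 lists. The next 3, near ELMOD1 (fold 29.5), NECTIN1 (27.9) and within an intron of MAP4K4 (25.7), are centred on runs of the dinucleotide TC or AG, as the ELMOD1 window shows. In all, 22 of 331 shared, 4 of 1308 RELB-only and 0 of 120 RELA-only summits lie in such short repeats, which the filter on 1000 bp windows did not remove. Of the 295 shared regions outside the 10-list set, 205 held an NF-κB consensus.

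Sharing followed RELB enrichment, except among the weakest regions. Of the 327 RELB regions with the highest fold 155 (47.4%) were shared and of the 327 with the lowest fold 44 (13.5%), an odds ratio of 5.78 (3.89 to 8.72; Fisher's exact test, two-sided, adjusted p = 5.27e-21 over the 16 tests of the family). With the regions ranked by fold into 10 groups of 163 or 164, the shared share fell from 56.7% in the strongest group to 4.88% in the ninth and was 22.1% in the weakest, where the fold was 1.93 to 4.93. That weakest group also stood apart in sequence, with an NF-κB consensus in 30.7% of regions against 62.2 to 72.0% in the other groups, and 20.9% of it was in the RELB vehicle list. Its fold range held all 6 shared regions nearest to OR4F16 (2.63 to 4.75) and all 4 nearest to NUPR2 (3.17 to 3.76). These genes were named after their counts were seen. In the RELA list 86.0% of the strongest 114 regions and 50% of the weakest 114 were shared.

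**Figure D2:**
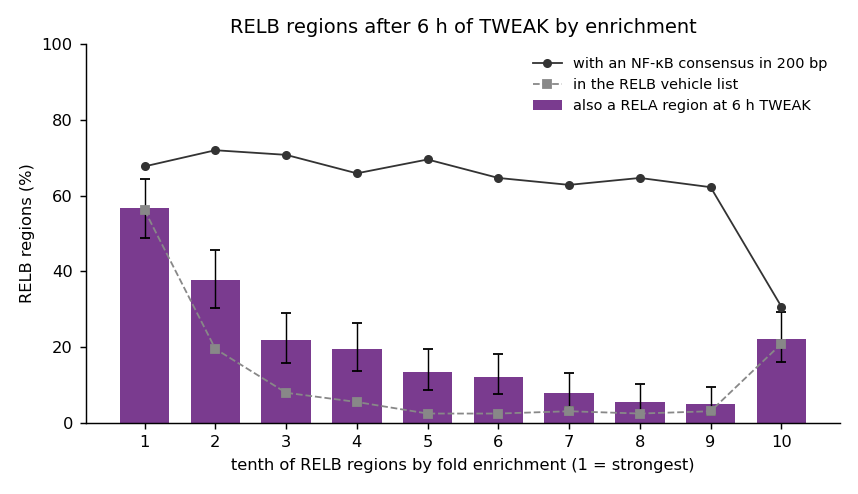
Percent of RELB regions shared with RELA (bars, exact 95% intervals), holding an NF-κB consensus (circles) and present in the RELB vehicle list (squares), in 10 groups ranked by RELB fold enrichment. Sharing runs from 56.7% in the strongest group to 4.88% in the ninth, and the weakest group departs from its neighbours in all 3 measures.

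RELB-only regions were moderate peaks, and most regions of every class lay away from promoters. Their median fold was 6.67 (quartiles 5.60 and 8.57, highest 23.98), their median width 169 bp and their median distance to a start site of a protein-coding gene 24273 bp. Shared regions had a median RELB fold of 9.67, a width of 215 bp and a distance of 14260 bp. RELA-only regions had a median RELA fold of 4.67, against 5.81 for RELA at shared regions, and a highest value of 10.7. Their median width was 111 bp and their median distance 27075.5 bp. A promoter, here a summit within 1000 bp of a start site, held 206 of 1308 RELB-only regions (15.7%), 57 of 331 shared regions (17.2%) and 22 of 120 RELA-only regions (18.3%). The odds ratio against RELB-only regions was 1.11 (0.791 to 1.55) for shared and 1.201 (0.703 to 1.98) for RELA-only regions (Fisher's exact test, adjusted p = 0.620 and 0.582), so no difference in promoter share was detectable within these intervals. Among the 400 strongest regions of each list the shared regions lay at promoters more often (2.35, 1.25 to 4.51; p = 0.00469), and with tandem repeats kept they did so less often (0.226, 0.166 to 0.303; p = 6.76e-28), both by Fisher's exact test. The 47959 FOSL1 regions that touched no RELA or RELB list, used below as comparison regions, lay at promoters in 19.7%.

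The NF-κB consensus separated the RELA-only regions from the other classes. It occurred in the 200 bp around 827 of 1308 RELB-only summits (63.2%, 60.5 to 65.8%), 207 of 331 shared summits (62.5%, 57.1 to 67.8%) and 13 of 120 RELA-only summits (10.8%, 5.90 to 17.8%). The background share was 2.19% of the comparison regions and 4.22% of the 200 bp upstream of RefSeq gene starts. The comparison regions were chosen to touch no RELA or RELB list, so their low share follows in part from that choice. RELA-only regions held it less often than RELB-only regions (odds ratio 0.0708, 0.0361 to 0.128; Fisher's exact test, adjusted p = 1.58e-29), whereas shared and RELB-only regions did not differ detectably (0.971, 0.752 to 1.26; adjusted p = 0.848). The second comparison changes with the regions called everywhere: without the 36 regions of all 10 lists the odds ratio was 1.32 (1.00 to 1.76, p = 0.0436), and without regions in the vehicle list of the same antibody it was 1.62 (1.14 to 2.32, p = 0.00487), both by Fisher's exact test. With tandem repeats kept it was 0.139, and with the repeat limit at 0.5 it was 0.414. The consensus lay within 25 bp of the summit in 73.4% of RELB-only and 84.1% of shared regions that held it. RELA-only regions had low folds (median RELA fold 4.67), and the weakest group of RELB regions held the consensus in 30.7%. RELA-only and RELB-only regions were not matched for fold. Of the RELA-only regions 46 of 120 (38.3%) were in a RELB list of another condition. Likewise 46 had neither the consensus nor a FOSL1 peak, and an H3K27ac peak at 6 h of TWEAK lay near 19.6% of those. Weak peaks, regions that recur in other RELB lists and RELA binding without RELB cannot be told apart here.

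**Figure D3:**
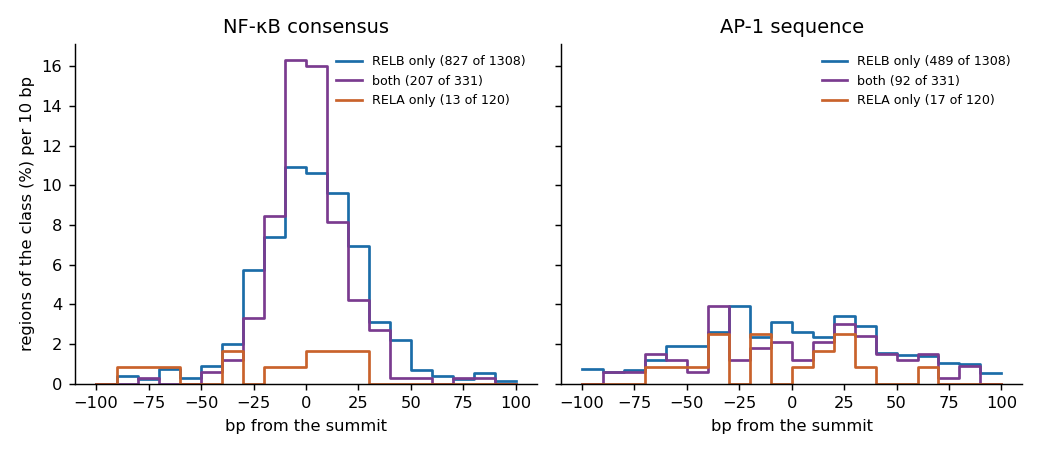
Distance from the summit in bp of the nearest NF-κB consensus (left) and AP-1 sequence (right), as percent of all regions of a class per 10 bp bin. The NF-κB consensus peaks at the summit of RELB-only and shared regions, while the AP-1 sequence, with medians of 31.5 and 34 bp from the summit in these classes, is spread over the window.

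Shared and RELB-only regions differed in 2 of their κB sequences. The 12 most frequent 10-base sites over all classes were compared between the 207 shared and the 827 RELB-only regions with a consensus, a comparison added after the single shares had been seen. GGGGAATTCC was found in 47 shared regions (22.7%) and 80 RELB-only regions (9.67%), an odds ratio of 2.74 (1.80 to 4.15; Fisher's exact test, p adjusted over the 12 sites 2.93e-05). It is the site in the RELB promoter window above, and also the site of the RELB-only region at FAAH2. GGGGTTTTCC was found in 16 (7.73%) and 23 (2.78%; odds ratio 2.92, 1.41 to 5.91; Fisher's exact test, adjusted p = 0.0115). The most frequent site, GGGACTTTCC, was found in 21 shared (10.1%) and 134 RELB-only regions (16.2%), which did not pass after adjustment (odds ratio 0.584, 0.340 to 0.961; Fisher's exact test, adjusted p = 0.0588). GGGAATCCCC, in 3 shared and 45 RELB-only regions, had the same adjusted p, as did GGGGATTTCC (28 and 66) and GGGAATTCCC (23 and 53), whose odds ratios were above 1. A site can recur in overlapping forms within a region, so the counts of sites do not add up to the regions.

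AP-1 features pointed in 2 directions. Shared regions held the sequence TGANTCA less often than RELB-only regions (27.8% against 37.4%; odds ratio 0.645, 0.489 to 0.846; Fisher's exact test, adjusted p = 0.00166) and overlapped a FOSL1 peak of vehicle-treated cells more often (77.6% against 60.2%; odds ratio 2.29, 1.72 to 3.08; adjusted p = 4.77e-09). In RELA-only regions the sequence was in 14.2% (odds ratio against RELB-only 0.277, 0.153 to 0.472; Fisher's exact test, adjusted p = 1.59e-07) and a FOSL1 peak at 59.2% (0.956, 0.643 to 1.43; adjusted p = 0.848). Counting FOSL1 peaks of at least 5-fold alone, RELA-only regions had fewer than RELB-only regions (odds ratio 0.463, Fisher's exact test, p = 0.000231). The difference in TGANTCA between shared and RELB-only regions did not pass without the regions of all 10 lists (0.759, 0.572 to 1.00; Fisher's exact test, p = 0.0517) or without the vehicle regions (0.842, 0.603 to 1.17; p = 0.303). The 4 strongest shared regions, which are in all 10 lists, overlapped FOSL1 peaks with folds of 15.6 to 32.4 and held no TGANTCA. The median distance between a FOSL1 summit and the factor's summit was 58 bp at RELB-only, 37 bp at shared and 50 bp at RELA-only regions.

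**Figure D4:**
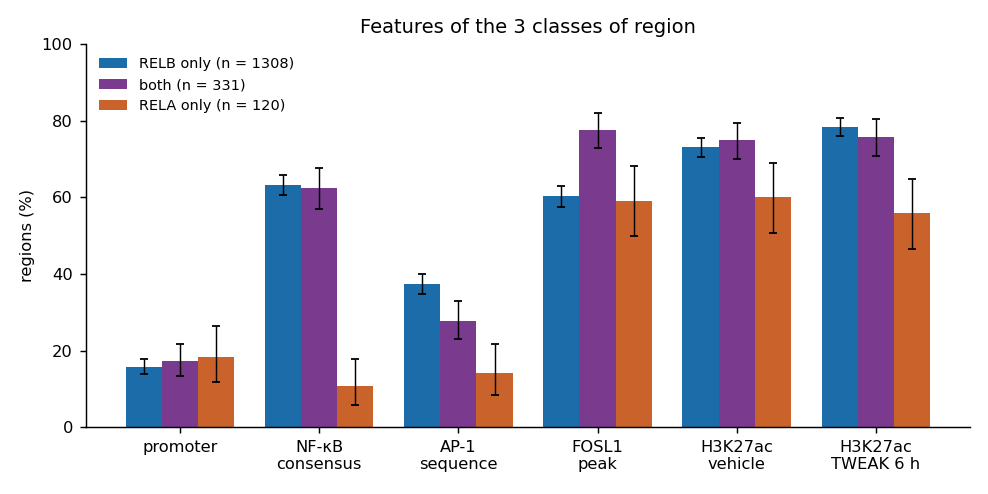
Percent of RELB-only, shared ("both") and RELA-only regions with each feature, with exact 95% intervals over regions. RELA-only regions stand apart in the NF-κB consensus (10.8% against 63.2% and 62.5%), and shared regions in FOSL1 peaks (77.6%).

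Among RELB-only regions, FOSL1 peaks and the AP-1 sequence were less frequent where the NF-κB consensus was present. These comparisons within a class, 21 in all, were added after the single shares had been seen. Of the 481 RELB-only regions without an NF-κB consensus 73.0% overlapped a FOSL1 peak, against 52.8% of the 827 with one (odds ratio with against without 0.415, 0.323 to 0.533; Fisher's exact test, adjusted p = 2.41e-12). The sequence TGANTCA was found in 47.6% without and 31.4% with the consensus (0.505, 0.398 to 0.641; Fisher's exact test, adjusted p = 2.43e-08). In shared regions TGANTCA was more frequent with the consensus than without it (32.4% against 20.2%; 1.89, 1.09 to 3.35; Fisher's exact test, adjusted p = 0.0231), and FOSL1 showed no detectable difference (1.18, 0.669 to 2.07). Promoter regions of the RELB-only class held the NF-κB consensus in 80.1% and TGANTCA in 13.6%, against 60.1% and 41.8% of the other RELB-only regions (odds ratios 2.67 and 0.219; Fisher's exact test, adjusted p = 4.54e-08 and 3.93e-15). By combination, 437 RELB-only regions had both consensus and FOSL1, 390 the consensus without FOSL1, 351 FOSL1 without the consensus, and 130 neither.

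Most RELB-only regions were sites that RELA occupied under TNFα. The RELA lists of 30 min and 6 h of TNFα contained 76.8% and 75.3% of RELB-only regions, and 1122 of 1308 (85.8%) were in at least 1 of the pair. The RELA list of 30 min of TWEAK contained 17.0% and that of vehicle 7.19%. Shared regions, in contrast, were already RELA sites in vehicle in 71.6% (odds ratio against RELB-only 32.4, 23.4 to 45.3; Fisher's exact test, adjusted p = 4.14e-126) and at 30 min of TWEAK in 75.5%. They were in the RELA list of 30 min of TNFα in 92.7% (odds ratio 3.85, 2.48 to 6.23; Fisher's exact test, adjusted p = 1.07e-11) and in the RELB vehicle list in 39.9%, against 5.35% of RELB-only regions (odds ratio 11.7, 8.36 to 16.5; adjusted p = 2.04e-51). Within the 10 groups of RELB fold the common odds ratios (Mantel-Haenszel) were 21.2 for the RELA vehicle list, 5.51 for the RELB vehicle list and 2.60 for the early TNFα list of RELA. Shared regions are defined by a call with the RELA antibody and RELB-only regions by its absence. Regions called in all 10 lists can fall only in the shared class. The excess of shared regions in these lists therefore follows in part from the class rule, and the p-values are no independent evidence. The peak names of the early TNFα list of RELA bear the label of replicate 1, and whether it pools all 3 replicates is unclear.

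**Figure D5:**
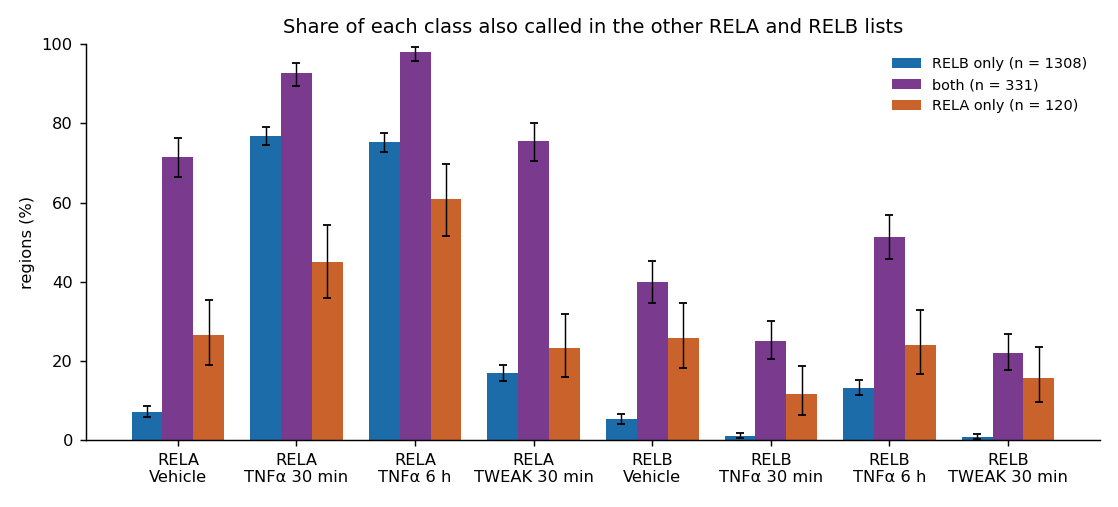
Percent of RELB-only, shared ("both") and RELA-only regions also called in the other 4 RELA and 4 RELB lists, with exact 95% intervals over regions. RELB-only regions reach 76.8% and 75.3% in the TNFα lists of RELA and at most 17.0% in every other list drawn.

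The 185 RELB-only regions in none of the 5 RELA lists held the NF-κB consensus in 36.8%, TGANTCA in 42.7% and a FOSL1 peak in 43.2%, against 67.6%, 36.5% and 63.0% of the 1123 that were in a RELA list. RELA-only regions were in the RELA list of 6 h of TNFα in 60.8%, in the RELA vehicle list in 26.7% and in the RELB vehicle list in 25.8%. In no other RELA or RELB list were 174 RELB-only and 27 RELA-only regions.

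RELB-only and shared regions lay near acetylated chromatin to a similar extent, and RELA-only regions less often. An H3K27ac peak lay within 500 bp of the summit at 6 h of TWEAK for 78.4% of RELB-only, 75.8% of shared and 55.8% of RELA-only regions, against 64.8% of the comparison regions. The odds ratio against RELB-only was 0.866 (0.648 to 1.17) for shared regions (Fisher's exact test, adjusted p = 0.488) and 0.349 (0.234 to 0.523) for RELA-only regions (adjusted p = 3.93e-07). Within the 10 groups of RELB fold the shared regions had fewer peaks (0.642, 0.469 to 0.877, Mantel-Haenszel). FOSL1 went with acetylation in each class: a peak lay near 92.4% of RELB-only regions with FOSL1 and 57.1% without (odds ratio 9.09, 6.59 to 12.7; Fisher's exact test, adjusted p = 9.15e-51), near 81.3% and 56.8% of shared regions, and near 78.9% and 22.4% of RELA-only regions.

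Against vehicle, 91 RELB-only regions gained an H3K27ac peak after 6 h of TWEAK and 21 lost it, a ratio of 4.33 (two-sided exact McNemar test, adjusted p = 3.79e-11). At shared regions 8 were gained and 5 lost (1.60 per lost; exact McNemar test, adjusted p = 0.664), at RELA-only regions 3 and 8, and at the comparison regions 1027 and 3173 (0.324 per lost). The balance at RELB-only regions exceeded that of the comparison regions (odds ratio 13.4, 8.20 to 22.8) and of RELA-only regions (3 to 8 against 91 to 21, odds ratio 0.0890, 0.0140 to 0.409; Fisher's exact test, p adjusted over 4 comparisons 9.42e-35 and 0.000806), while the shared regions could not be separated from RELB-only regions (0.373, 0.0957 to 1.60; adjusted p = 0.142). The shared regions also exceeded the comparison regions (4.94, 1.42 to 19.2; Fisher's exact test, adjusted p = 0.00662). The comparison regions were called in vehicle and the RELB regions after TWEAK. That choice by itself can favour losses at the former and gains at the latter. The odds ratios against the comparison regions therefore cannot separate selection from a response to TWEAK. The direction of change at RELB-only regions depends on where the peak is looked for. With the peak required to overlap the region itself, 74 RELB-only regions gained and 118 lost it (0.627 per lost; exact McNemar test, p = 0.00184), with 7 and 27 at shared regions and 1181 and 4098 (0.288 per lost) at comparison regions. Of the 91 gained regions 69 (75.8%) held the NF-κB consensus and 19 (20.9%) a FOSL1 peak, against 63.2% and 60.2% of all RELB-only regions. Only regions without a peak in vehicle can gain one, so all RELB-only regions are an unlike set. The 262 RELB-only regions in neither H3K27ac list held the consensus in 72.5% and a FOSL1 peak in 17.9%, close to the gained regions. An H3K27ac peak at 6 h of TNFα lay near 77 of the 91 gained regions (84.6%) and near 85 of these 262 (32.4%), a difference that was not tested. The share of all RELB-only regions was 85.1%, and 73.0% of them already had a peak in vehicle. The strongest gained regions by RELB fold, chosen after their values were seen, lay nearest to DYRK1A, COL6A2, AEBP2 and FRMD4A, at folds of 15.1, 14.9, 13.2 and 12.9.

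The strongest RELB-only regions were mostly intronic or intergenic. A nearest gene is given as a position and not as a regulated target. The strongest lay in an intron of CUL3, the scaffold of a ubiquitin ligase, at chr2:224485354-224485614, with a fold of 23.98 (rank 7 among RELB regions). It held neither motif and was called in 3 RELA lists with folds of 6.80 to 10.3, namely both TNFα lists and 30 min of TWEAK. The intronic FYB1 region (chr5:39256532-39256820) had a fold of 20.5 and the intronic PSMB7 region (chr9:124392905-124393179, a proteasome subunit gene) 20.1. KLF11, a transcription factor gene, had a region 6638 bp upstream at chr2:10036092-10036350 with a RELB fold of 19.0 and RELA folds of 6.23 in vehicle, 16.9 and 13.9 after 30 min and 6 h of TNFα, and 6.53 in the early TWEAK list. The remaining 4 of the strongest 8 lay in introns of KIF25 (18.9), ZNF827 (18.5) and ABHD2 (18.3) and upstream of SULF2 (18.5).

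Among RELB-only regions outside the RELB vehicle list, PSMB7 and KLF11 were again the strongest. Others were promoter regions of ALG6 (204 bp upstream, fold 17.5) and FAAH2 (155 bp upstream, 17.1), a region 20180 bp upstream of IFNGR2, a chain of the interferon gamma receptor (16.7), and regions nearest ABHD17C (16.6) and INO80C (16.02). MYC, the proto-oncogene, was the nearest gene of 4 RELB-only regions with folds of 3.96 to 14.5, and NEDD9 (6.21 to 13.8), TNS3 (3.77 to 12.7), RSRP1, XXYLT1 and SMAD3 (3.70 to 6.32) of 4 each, genes named after their counts were seen. TPTE was the nearest gene of 8 RELB-only, 7 shared and 9 RELA-only regions, and CCDC200 of 5 shared and 5 RELA-only regions.

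The next 4 of the 8 strongest shared regions each held the NF-κB consensus. They lay 30689 bp from a start site of MCM5 (chr22:35430957-35431251, RELB fold 24.5, RELA fold 5.88) and in introns of RAD51B (24.2 and 9.93) and CHST11 (23.4 and 6.90), with SPDYE17 (23.4 and 8.04) in all 10 lists. Of the strongest shared regions outside the RELB vehicle list, CRTAC1 had folds of 20.3 for RELB and 11.4 for RELA, TNIP2 19.6 and 5.16, RNF165 17.6 and 5.91, SUSD1 17.3 and 8.30, NCK1 16.9 and 8.43, CAPN2 16.2 and 6.78, MLF1 16.05 and 5.05, and PAPLN 15.7 and 5.54. These 8 were picked by their RELB fold, so the higher RELB fold at each of them follows in part from that choice. NCK1 was the 1 without either motif.

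The strongest RELA-only regions differed in the other lists they were in. CP (ceruloplasmin, RELA fold 10.6), C3 (the central complement component, 10.3), HBEGF (a ligand of the EGF receptor, 9.20) and H3C14 (8.44) had regions that were in all 5 RELA lists, with folds of 19.1 to 23.9 at 30 min of TNFα, and in no RELB list. The C3 region at chr19:6720643-6720899 lies 52 bp upstream of a start site. Of the others, CNTNAP2 (10.7, 118613 bp upstream), GBE1 (8.74, 836572 bp away) and FOXD4L5 (8.53) were in no RELA list of vehicle or 30 min. CNTNAP2 was in the RELB list of 6 h of TNFα (8.29), and GBE1 (6.09) and FOXD4L5 (5.45) were in the RELB vehicle list. The EPHA6 region (10.3, 196630 bp upstream) was in 4 RELB lists. Outside the RELA vehicle list, LRP1B (7.50), PDZRN4 (7.15), TAF11L13 (6.99), PCDH10 (6.94) and TMPRSS2 (6.75) followed. Of these, LRP1B was in the RELB vehicle list (6.69), PDZRN4 in the RELB list of 6 h of TNFα (7.94), and the others in no RELB list. Of these 13 RELA-only regions named by their fold, only TAF11L13 held the NF-κB consensus.

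Genes of 12 groups of the NF-κB pathway and its known targets were examined for a region within 50 kb of a start site. Of 128 such genes, 58 had a region of any class, against 10.8% of 19618 protein-coding genes, 43 a RELB-only region (background 8.24%), 20 a shared region (2.66%) and 4 a RELA-only region (0.749%). The groups were chosen as NF-κB genes with earlier results of these data known, so their counts describe them and are no test. The genes share regions in clusters, and the 43 genes rest on 44 distinct RELB-only regions, the 20 on 25 shared and the 4 on 4 RELA-only regions. Of the 44 RELB-only regions 42 were also in the RELA list of 30 min of TNFα, and ICAM1 and B2M had the 2 that were not.

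All 5 NF-κB subunit genes had a shared region within 50 kb, and 3 of them (RELA, NFKB1 and NFKB2) also a RELB-only region. The shared region lay at a start site for RELB (85 bp upstream, RELB fold 10.7, RELA fold 5.99), REL (6.96 and 5.85) and NFKB1 (12.1 and 6.23), and 45350 bp away for RELA, in an exon of MAP3K11. The start site of RELA itself carried a RELB-only region (fold 6.13), and NFKB1 had another in an intron (5.86). NFKB2, the p100 gene, had a shared region at 1 start site (chr10:102394269-102394590, RELB 11.0, RELA 11.4) and a RELB-only region about 1 kb downstream at another (chr10:102395547-102395858, RELB 14.2), which was in the RELA list of 30 min of TWEAK at 7.12. Of the IκB family NFKBIA, which encodes IκBα, had 2 shared regions (RELB folds of 18.1 and 6.95), and NFKBIE and BCL3 had 1 each, besides 1 and 2 RELB-only regions. Of 6 feedback genes, 4 had shared regions and none a RELB-only region: TNFAIP3, the ubiquitin-editing enzyme A20, at its start (21.0 and 9.72), CYLD, a deubiquitinase, 140 bp upstream (19.2 and 9.01), and the A20-binding genes TNIP1 and TNIP2. With a RELB-only region near 8.24% of all genes, none among 6 genes is no departure from the background. Of 9 genes of noncanonical signalling 3 (TRAF2, BIRC2 and BIRC3) had shared regions, and the same 3 had RELB-only regions. BIRC3, which encodes the ubiquitin ligase cIAP2, had a shared region 149 bp upstream (16.5 and 10.8), and TRAF2, its adaptor, an intronic one (22.8 and 10.3).

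RELB-only regions lay within 50 kb of effector genes as well as of pathway genes. Some were nearest to another gene, such as those counted for PLAU (nearest CAMK2G), MCL1 (ENSA) and PSMB10 (SLC12A4). With a shared region near 2.66% of all genes, a count of 0 shared regions in a group of 14 to 18 genes is no departure from the background. Over the distinct regions of the gene groups the median fold was 6.85 for RELB-only (highest 14.2) and 11.0 for shared regions (highest 22.8). In the RELA vehicle list were 7 of 44 RELB-only against 22 of 25 shared regions, a contrast that the class rule itself favours. Of 19 ligand and receptor genes 8 had a RELB-only region and 1, TNFRSF10B, shared regions (RELB 19.3, RELA 11.0 at the stronger). FAS, a death receptor, had RELB-only regions of 12.6 and 11.0, TNFRSF10A 11.6, TNFRSF9 9.34 at its start and the ligand TNFSF15 8.36. The TWEAK receptor gene TNFRSF12A was reached by the region at the start of IL32, 44921 bp away. Of 18 chemokine genes 4 had a RELB-only and none a shared region, namely CCL20 (7.80), CCL28 (5.78) and the neighbours CCL19 and CCL21, which share 1 region of 8.28. Of 15 adhesion and matrix genes 7 had RELB-only and none shared regions, among them MMP1 (8.14, also within reach of MMP3 and MMP10), LAMB3, a laminin chain (7.02), and PLAU, urokinase (6.91). Cytokine genes with a RELB-only region were IL23A (9.16, 109 bp upstream), IL32 (8.02), IL1A and IL1B (7.46, the same regions) and CSF3 (5.65), while LIF (7.69) and EBI3 (8.32, a region centred on a TG run within YJU2) had shared ones. Of 14 genes of antigen presentation and interferon 5 had RELB-only regions and none a shared one, among them IRF1 (6.998 and 6.55), B2M (6.16), PSMB10 (4.77) and IRF2 (4.40). Among AP-1 genes, FOSL1 had both kinds, MAFF a shared one (16.4) and JUNB (7.79), FOSB (6.93) and FOSL2 (4.22) RELB-only ones. MCL1, the survival gene with a region, had a RELB-only one of 6.77, and NOS2 2 of 8.39 and 7.89.

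RELA-only regions touched 4 of the genes. They lay 122 bp upstream of CXCL8, a neutrophil chemokine (RELA fold 24.5 and 20.0 after 30 min and 6 h of TNFα, 12.1 and 5.33 after 30 min and 6 h of TWEAK), at NFKBIZ (6.15), at NFKBIB (4.37) and 17535 bp upstream of CSF1 (4.88). None of the 4 was in any RELB list, and CXCL8 was the 1 without the NF-κB consensus in its window.

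The labelled cell type was checked with H3K27ac at start sites. In vehicle all 7 ductal epithelial markers carried a peak within 500 bp, and 6 did at 6 h of TWEAK (CDH1 did not). Of the 12 leukocyte, endothelial and fibroblast markers, CD68, VWF, COL1A1 and COL3A1 carried one in both lists and PECAM1 at 6 h of TWEAK alone.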

How the data were processed

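ChIP-seq of RELA, RELB, H3K27ac and FOSL1 was carried out in L3.6pl cells in 16 conditions of 3 replicates. Reads were aligned by the authors to hg38 (Bowtie2 2.5.0, SAMtools 1.18), who called peaks with MACS2 (version not given in the sources used here) against input, without the shifting model and with a cutoff of 0.05. The deposited fold enrichment is a ratio over input and the deposited −log10 q is the authors' significance of a peak. 32 columns, the score and the −log10 p of each list, were not used. The depth per sample is unknown, and intervals cover counting of regions alone. With 1 list per condition there was no test over replicates. Fisher's exact tests and exact McNemar tests treat regions as units and describe these lists.

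Overlaps needed 1 bp. A summit lay in a tandem repeat when 1000 bp around it matched itself in at least 0.4 of positions at a shift of 1 to 400 bp. Motifs were searched in 200 bp around the summit on both strands, and start sites came from GENCODE 44 (protein-coding). Promoter background used the RefSeq promoter table (GRCh38.p14). Python 3.11.15, scipy 1.17.1, statsmodels 0.14.6 and pysam 0.24.0 were used. P-values were adjusted by Benjamini-Hochberg. Functions were tested on simulated data. Members, gene lists and tests were chosen with earlier results of these data known. Named regions are the 8 strongest of each class by fold, the 8 strongest outside the vehicle list of the same antibody, and genes of the lists with a region within 50 kb. Some regions that this rule names are not reported here. Short repeats were called where 60 bp around a summit matched themselves in at least 0.8 of positions at a shift of 1 to 6 bp.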

Additional observations from a re-analysis of the deposited data

Results flagged for a closer look

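The share of regions common to the factors is given for both ligands at 6 h as a description of the lists. After TNFα 372 of 411 RELB regions outside tandem repeats (90.5%, 87.3 to 93.2%) were shared with RELA, against 331 of 1639 (20.2%) after TWEAK, an odds ratio of 0.0266 (0.0182 to 0.0380). In the other direction 370 of 3663 RELA regions (10.1%, 9.14 to 11.1%) were shared with RELB after TNFα, against 336 of 456 (73.7%) after TWEAK, an odds ratio of 24.9 (19.6 to 31.8). The lists differ in length in opposite ways between the ligands, and a short list limits how many regions of a long list can be shared. The odds ratios therefore restate list length to a large part, no p is read from them, and binding and list length cannot be told apart here. Sites called under both ligands enter both counts.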

How the results depend on the processing

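No paired analysis was possible because each condition has 1 list that does not separate its replicates, and for the same reason no replicate could be left out. Of 162 values under alternatives, 109 of those planned and 16 of those added after seeing the data kept their direction and their side of the threshold or interval. The rest are given here, as percent shared or as odds ratios against RELB-only regions, and the cause was not tested. With tandem repeats kept, the shared share was 53.5% for RELB and 60.1% for RELA, and the odds ratios of shared regions were 0.226 for promoters, 0.139 for the NF-κB consensus and 1.24 for H3K27ac, with 0.152 for promoters of RELA-only regions. With a self-match limit of 0.5 these were 28.1% of RELB regions, 0.691, 0.414 and, for RELA-only promoters, 0.721. At a fold of at least 5 in both lists it was 16.6% for RELB and 82.2% for RELA, with 1.03 for the consensus. Among the 400 strongest of each list 44% of both were shared, with 2.35 and 2.21 for promoters of shared and RELA-only regions and 1.02 for the consensus. Leaving out regions in the factor's own vehicle list, the shared share was 13.8% for RELB and 52.7% for RELA, with 0.911 for RELA-only promoters and, for shared regions, 1.62 for the consensus, 0.842 for TGANTCA, 1.05 for H3K27ac and 8 H3K27ac peaks gained per lost. Without regions of all 10 lists the consensus gave 1.32 and TGANTCA 0.759, and without short repeats, chosen after seeing the data, the consensus gave 1.17 and H3K27ac 1.11. In 100 bp the consensus gave 1.10. Within 10 groups of fold H3K27ac gave 0.642. With overlapping H3K27ac peaks it gave 1.16, with 0.627 gained per lost at RELB-only and 0.259 at shared regions, and with a −log10 q of at least 3 it gave 1.06, with 0.4 gained per lost at shared regions. FOSL1 peaks of at least 5-fold gave 0.463 for RELA-only regions. The depth of the libraries is unknown, so a region absent from a list is not shown to be unbound.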

Other observations

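The RELB-only regions had 1161 nearest genes, the shared regions 294 and the RELA-only regions 93. Of these, 71 genes were nearest to both a shared and a RELB-only region, which is 24.1% of the shared genes and 6.12% of the RELB-only genes, and 11 were nearest to a RELA-only and a RELB-only region, 11.8% and 0.947%. Where an H3K27ac peak was present at 6 h of TWEAK, its median fold was 3.33 near RELB-only, 3.30 near shared and 3.13 near RELA-only regions. Against vehicle, 162 RELB-only regions gained an H3K27ac peak after 6 h of TNFα and 4 lost it, where 1841 comparison regions gained and 2011 lost it (0.915 per lost). After 30 min of TWEAK 35 RELB-only regions gained and 85 lost it (0.412 per lost), where 841 comparison regions gained and 5446 lost it (0.154 per lost). The comparison regions were called in vehicle and the RELB-only regions after TWEAK, a choice that can favour losses at the former.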
